A study of Mus musculus with 12 samples.

Results

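The troponins, tropomyosins and actinins that come in a fast and a slow form were followed across RNA-seq profiles of mouse extensor digitorum longus (EDL), which is a lower leg muscle rich in fast-twitch fibers. The set was given as a list of symbols: slow-type Tnni1, Tnnt1, Tnnc1, Tpm3 and Actn2, and fast-type Tnni2, Tnnt3, Tnnc2, Tpm1 and Actn3. All 10 were present among the 17752 genes of the table, and all 10 passed the filter that left 12744 genes to test. Each slow-type gene was paired with its fast-type counterpart inside every library, which gave 5 pairs.

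The 12 libraries fell into 4 groups of 3, since mice labelled WT and mice labelled strNrip1-/- were each either sedentary or trained. In the study, Cre under the muscle creatine kinase promoter acted on a floxed Nrip1 allele in heart and skeletal muscle, and littermates served as WT controls. Nrip1 encodes RIP140, a corepressor of nuclear receptors. Animals were male, trained groups ran voluntarily on wheels from 8 weeks of age, and the EDL came from a cohort that underwent no other testing. The comparisons ask how the genotype, the training and their combination bear on the fast and slow forms of the thin filament and Z-disc.

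As background, the thin filament is an actin polymer along which tropomyosin lies and on which the troponin complex sits at regular intervals. Troponin C binds calcium, troponin I holds the filament inhibited and troponin T ties the complex to tropomyosin, and fast and slow fibers build each of these subunits from different genes. Alpha-actinins crosslink actin at the Z-disc: Actn3 is the form of fast glycolytic fibers, while Actn2 is the form of heart and slow fibers and is also made in many fast fibers, so that "slow-type" is for Actn2 a name given by the pairing.

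Upstream sequences of the slow-type genes are shown because 4 of them moved together across the 12 libraries whereas Actn2 was ordered by labelled genotype. RefSeq windows of 250 bases before a transcript start (GRCm38.p6) were found for 7 of the 10 genes, in 9 windows. Each sequence is the longest stretch of such a window that lies outside annotated exons (GENCODE M21), written 5′ to 3′ on the gene's own strand. Capitals mark matches, on either strand, to the E-box CANNTG, to MCAT (CATTCC), to the nuclear receptor half-site AGGTCA and to the estrogen-related receptor element TNAAGGTCA, which contains that half-site.
Actn2, chr13:12340761-12340982, minus strand: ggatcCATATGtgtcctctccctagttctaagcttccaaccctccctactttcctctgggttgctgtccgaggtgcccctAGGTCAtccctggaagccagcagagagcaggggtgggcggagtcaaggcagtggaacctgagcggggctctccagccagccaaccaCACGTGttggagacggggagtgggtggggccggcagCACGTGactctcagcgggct
Tnni1, chr1:135799171-135799401, plus strand: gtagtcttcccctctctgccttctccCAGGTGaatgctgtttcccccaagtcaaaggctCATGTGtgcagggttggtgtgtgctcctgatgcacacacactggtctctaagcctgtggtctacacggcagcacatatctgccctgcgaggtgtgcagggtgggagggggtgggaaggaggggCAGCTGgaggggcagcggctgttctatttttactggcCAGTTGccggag
Tnnt1, chr7:4516005-4516225, minus strand: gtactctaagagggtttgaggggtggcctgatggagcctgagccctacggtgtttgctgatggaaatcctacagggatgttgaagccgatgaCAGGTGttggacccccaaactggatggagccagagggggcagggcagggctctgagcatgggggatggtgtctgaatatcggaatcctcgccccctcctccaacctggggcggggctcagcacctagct
Tnnc1, chr14:31208062-31208311, plus strand: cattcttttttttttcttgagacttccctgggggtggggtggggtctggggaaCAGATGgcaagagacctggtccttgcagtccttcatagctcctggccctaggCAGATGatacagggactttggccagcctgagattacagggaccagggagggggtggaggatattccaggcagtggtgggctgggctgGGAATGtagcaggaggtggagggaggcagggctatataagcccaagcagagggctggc
Tpm3, chr3:90072401-90072648, plus strand: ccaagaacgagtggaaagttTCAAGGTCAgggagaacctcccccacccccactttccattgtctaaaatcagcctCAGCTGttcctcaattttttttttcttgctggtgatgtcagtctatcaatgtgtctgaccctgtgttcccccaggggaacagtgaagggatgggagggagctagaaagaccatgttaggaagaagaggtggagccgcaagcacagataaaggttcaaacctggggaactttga

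The stretches of Actn2, Tnnc1 and Tpm3 lie directly before the annotated gene, while those of Tnni1 and Tnnt1 lie in introns of longer annotated transcripts. The E-box, bound by myogenic factors among others, was found in all 9 windows of the 7 genes, with 4 matches in the printed window of Tnni1, 3 in Actn2, 2 in Tnnc1 and 1 each in Tnnt1 and Tpm3. It was also present in 66.2% of all 32851 windows of the table. AGGTCA occurred in Actn2 and Tpm3 and in 14.0% of all windows, and the longer element was present only in the Tpm3 window shown and in 1.14% of all windows. MCAT was matched in Tnnc1 and Tpm1 and in 12.6% of all windows. MEF2 and CArG motifs in their consensus forms were matched in 0 of the 9 windows, against 0.508% and 1.47% of all windows. These are matches of letters, and binding was not measured in these libraries.

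Nrip1 was examined first, and its gene-level value was higher in libraries labelled strNrip1-/-. It stood at 3.60, 2.55 and 3.84 FPKM (fragments per unit of transcript length and depth) in labelled WT sedentary libraries and at 2.53, 4.76 and 3.56 FPKM in labelled WT trained ones. Libraries labelled strNrip1-/- had 15.5, 16.3 and 14.9 FPKM without and 20.7, 14.9 and 16.6 FPKM with training. In the study, the loxP sites flank the exon that holds the start and stop codons. The gene-level value sums all exons and cannot show a deleted exon by itself, so each genotype direction below rests on the labels. Relative to labelled WT, the log2 fold change was 2.08 (limma adjusted p-value 0.000277, SE 0.198) in sedentary and 2.14 (limma adjusted p-value 0.000208, SE 0.198) in trained muscle. Estimated depth ran from 19.96 to 29.08 M fragments per library. The labels name 3 separate samples per group, and p-values measure the spread between them.

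The libraries also differed in a way that the groups did not explain. Myh7, the slow myosin heavy chain, was at 24.8 FPKM in labelled WT sedentary replicate 2, at 49.99 FPKM in labelled WT trained replicate 2 and at 19.4 FPKM in labelled strNrip1-/- sedentary replicate 1, against 1.07 to 5.74 FPKM in the other 9. Skeletal muscle genes listed as fast markers dominated every library. Myh4, Mylpf, Acta1, Ckm, Pvalb and Atp2a1 summed to 62284 to 100286 FPKM, though Acta1 and Ckm are not confined to fast fibers. The summed level of 6 slow muscle markers ran from 67.5 to 379 FPKM. The sum with Acta1 and Ckm was 82325 to 100286 FPKM in labelled WT and 62284 to 75031 FPKM in labelled strNrip1-/- libraries. Its part in the genotype differences below was not tested. Of 6 cardiac markers 4 were analysed, as Myl7 and Nkx2-5 were absent, with sums of 9.95 to 20.8 FPKM. Tnnt2 was at 6.31 to 14.5, Myh6 at 2.73 to 5.91, Tnni3 at 0.122 to 1.05 and Nppa at 0 to 0.384 FPKM. Endothelial markers summed to 64.4 to 69.5 FPKM in sedentary libraries labelled WT and 70.2 to 82.5 FPKM in those labelled strNrip1-/-. In trained muscle they summed to 63.9 to 74.5 and 82.4 to 84.8 FPKM, so the genotypes did not overlap in either state. In sedentary muscle, adipocyte markers summed to 169.8 to 212.5 FPKM in labelled WT and 229.9 to 344.9 FPKM in labelled strNrip1-/- libraries. Smooth muscle markers summed to 89.99 to 98.6 and 102.6 to 110.2 FPKM. Neither sum overlapped between the genotypes there, while in trained muscle both did. In sedentary muscle Fabp4 held most of the adipocyte sum and overlapped by itself, at 158.6 to 188.6 and 188.3 to 235.5 FPKM. Adipoq, Plin1 and Lep also overlapped, while Cfd and Cidec did not. Every smooth muscle marker overlapped singly, with Smtn at 44.2 to 49.9 and 43.6 to 54.3 FPKM. The part of these cells in the genotype differences was not tested. In whole muscle, fewer cells of a type and less RNA per cell cannot be told apart.

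The fast-type genes were among the most abundant transcripts of the EDL. By mean FPKM over the 12 libraries, Tnnt3 ranked 8 of 17752 genes (26799 FPKM), Tnnc2 ranked 10 (21993 FPKM), Tnni2 ranked 15 (15295 FPKM), Tpm1 ranked 23 (9413 FPKM) and Actn3 ranked 36 (2503 FPKM). The slow-type genes came far below: Actn2 ranked 190 (394 FPKM), Tpm3 ranked 953 (73.6 FPKM), Tnnt1 ranked 1646 (40.9 FPKM), Tnnc1 ranked 2362 (26.8 FPKM) and Tnni1 ranked 5491 (7.95 FPKM). The lowest library of each fast-type gene lay above the highest library of its slow-type partner. Together the 5 fast-type genes held 13.7% ± 0.529 (SD, n = 3 here and below) of the FPKM outside the mitochondrial genome in sedentary and 13.4% ± 0.299 in trained libraries labelled WT, against 11.9% ± 1.21 and 11.7% ± 0.252 in those labelled strNrip1-/-.

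**Figure D1:**
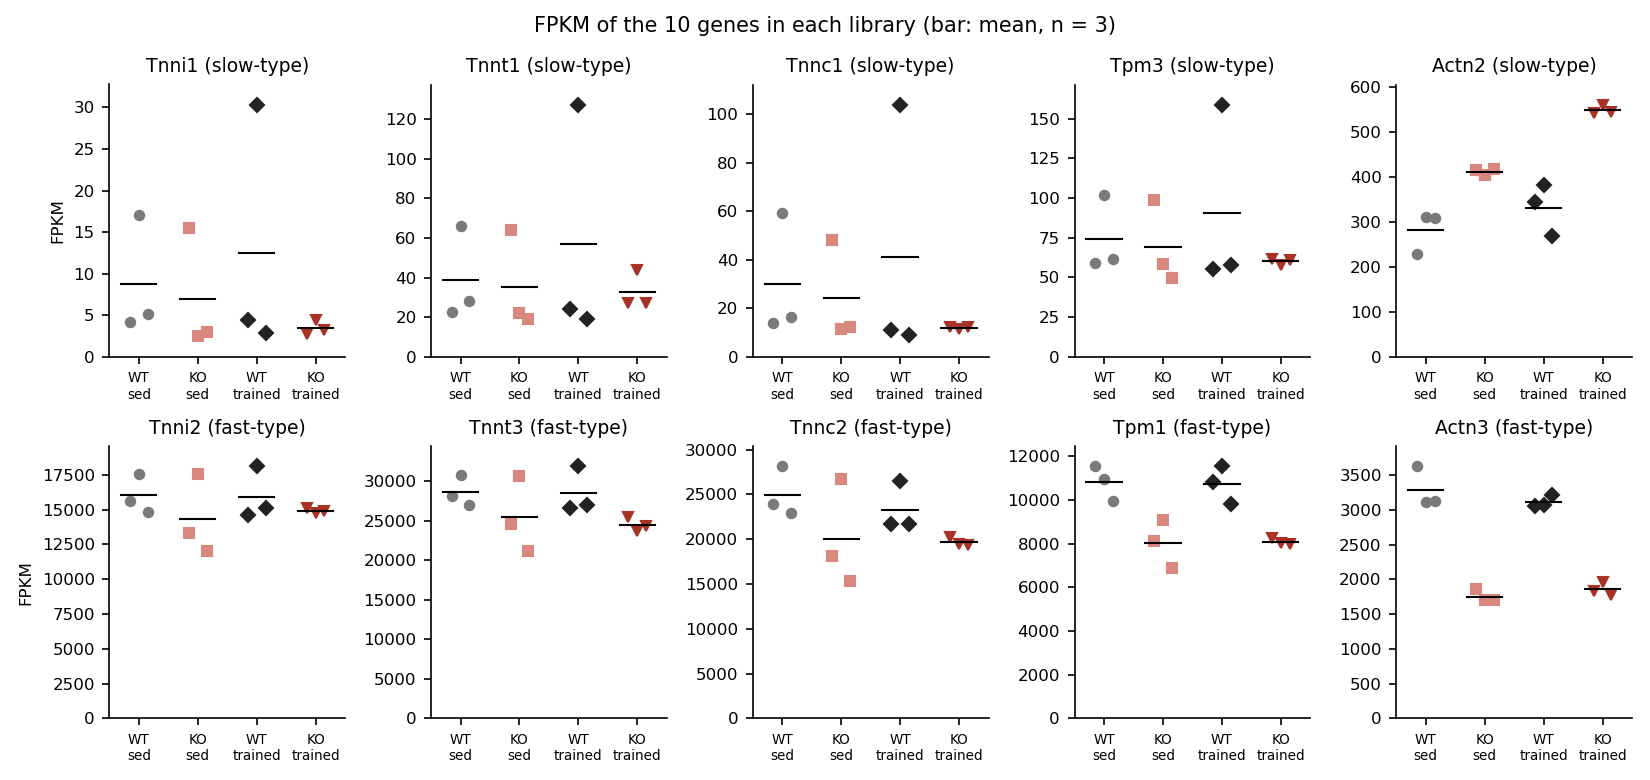
FPKM of the 10 genes in each of the 12 libraries, slow-type genes above and their fast-type partners below, on linear axes that start at 0 and differ between panels. Points are libraries (WT and KO as labelled, sed for sedentary) and bars are group means of 3. Actn3 and Actn2 separate the labelled genotypes, while a single high library sets the mean of the other slow-type genes in 3 of the 4 groups.

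Between the labelled genotypes, 2 of the 10 genes were called in sedentary and 2 in trained muscle, and in both cases they were the actinins, Actn3 lower and Actn2 higher. A call required an adjusted p under 0.05 over all 12744 genes and a fold change above 1.2. For comparison, 3.51% of all genes were called in sedentary muscle (1.92% higher, 1.59% lower) and 5.98% in trained muscle (3.21% higher, 2.77% lower). The log2 fold change was below 0 for 9 of the 10 genes in each comparison. Its median over the 10 was -0.26 in sedentary and -0.34 in trained muscle, while the median over all genes was -0.00 and 0.01. The sign depended on single libraries for several genes. Leaving out 1 library could turn Tnnt1, Tnnc1 and Tpm3 above 0 in both states, Tnni1 in sedentary muscle and Tnni2 in trained muscle. All 5 fast-type genes were below 0 in both comparisons and stayed there when libraries were scaled to the same sum with or without mitochondrial genes or quantile normalized, except that quantile normalization left Tnni2 at no difference in trained muscle. Scaling to the same sum moved the median of all genes to -0.14 in sedentary muscle.

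Troponin I, the inhibitory subunit, gave the widest gap between forms. Slow-type Tnni1 (ENSMUSG00000026418, chromosome 1, 135779434 to 135810989, GRCm38) was at 4.19, 17.0 and 5.13 FPKM in labelled WT sedentary and at 15.5, 2.47 and 2.98 FPKM in labelled strNrip1-/- sedentary libraries. In trained muscle it was at 4.38, 30.3 and 2.89 FPKM in labelled WT and at 2.80, 4.47 and 3.24 FPKM in labelled strNrip1-/- libraries. The 3 high values belonged to the 3 libraries high in Myh7, and the ranges of the genotypes overlapped in both states. The log2 fold change was -0.49 (95% interval -2.34 to 1.35) in sedentary and -1.02 (-2.87 to 0.83) in trained muscle, with limma adjusted p-values of 0.852 and 0.545. The sedentary value was 0.10 without labelled WT sedentary replicate 2 and -1.27 without labelled strNrip1-/- sedentary replicate 1, and the trained value was -0.0441 without labelled WT trained replicate 2 and -1.64 without labelled WT trained replicate 3.

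Fast-type Tnni2 (ENSMUSG00000031097, chromosome 7, 142441808 to 142444410) was at 15658, 17551 and 14857 FPKM in labelled WT sedentary and at 13317, 17539 and 12045 FPKM in labelled strNrip1-/- sedentary libraries. Trained libraries were at 14598, 18127 and 15111 FPKM when labelled WT and at 15101, 14741 and 14898 FPKM when labelled strNrip1-/-. The ranges overlapped in both states, and the labelled strNrip1-/- trained libraries lay closest together, with a coefficient of variation of 1.21%. The log2 fold change was -0.18 (-0.50 to 0.14) in sedentary and -0.09 (-0.41 to 0.23) in trained muscle (limma adjusted p-values 0.637 and 0.793). The trained value was 0.01 without both labelled WT replicates 2, and the sedentary one was called when libraries were scaled to the same sum (-0.34, limma adjusted p-value 0.0252). The sedentary value was -0.34 without labelled strNrip1-/- replicate 2 and -0.0646 without labelled strNrip1-/- replicate 3 of that state, neither called.

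Troponin T, which anchors the complex to tropomyosin, repeated this layout. Slow-type Tnnt1 (ENSMUSG00000064179, chromosome 7, 4504570 to 4516382) was at 22.4, 66.1 and 28.1 FPKM in sedentary libraries labelled WT and at 64.2, 22.0 and 19.0 FPKM in those labelled strNrip1-/-. After training, libraries labelled WT had 24.2, 127 and 18.9 FPKM and those labelled strNrip1-/- had 27.1, 43.9 and 27.3 FPKM. The same 3 libraries were high, followed by labelled strNrip1-/- trained replicate 2, the library with the next highest Myh7. The log2 fold changes of -0.21 (-1.71 to 1.30) and -0.28 (-1.79 to 1.22) for the genotype in sedentary and trained muscle did not pass the test (limma adjusted p-values 0.931 and 0.870). Without the 3 libraries highest in Myh7 the trained value turned to 0.57, again not called (limma adjusted p-value 0.215).

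Fast-type Tnnt3 (ENSMUSG00000061723, chromosome 7, 142498836 to 142516009) was the most abundant of the 10 genes. It stood at 28149, 30846 and 26969 FPKM in labelled WT sedentary and at 24649, 30610 and 21217 FPKM in labelled strNrip1-/- sedentary libraries, which overlapped. In trained muscle it stood at 26675, 31910 and 27049 FPKM in labelled WT and at 25449, 23759 and 24300 FPKM in labelled strNrip1-/- libraries, with no overlap. The trained difference, a log2 fold change of -0.22 (-0.53 to 0.10), did not pass the test over all genes (limma adjusted p-value 0.443). The sedentary one was -0.18 (-0.50 to 0.13, limma adjusted p-value 0.622) and, of the 3 other scalings, was called when libraries were scaled to the same sum (-0.34, limma adjusted p-value 0.0140). It ran from -0.32 without labelled strNrip1-/- sedentary replicate 2 to -0.0587 without replicate 3 of that group, and the trained value was -0.13 without labelled WT trained replicate 2. Tnnt3 lies 54.4 kb from Tnni2, and Tnnt1 lies 1.92 kb from the cardiac troponin I gene Tnni3, which was at 0.122 to 1.05 FPKM. The cardiac troponin T gene Tnnt2 was at 6.31 to 14.5 FPKM, and its log2 fold changes of -0.27 and -0.23 did not pass the test (limma adjusted p-values 0.642 and 0.611).

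Troponin C, the calcium sensor, followed. Slow-type Tnnc1 (ENSMUSG00000091898, chromosome 14, 31208312 to 31211729), also the cardiac form, was at 14.0, 59.2 and 16.4 FPKM in sedentary libraries labelled WT and at 48.2, 11.4 and 12.5 FPKM in those labelled strNrip1-/-. After training, libraries labelled WT had 11.1, 104 and 8.95 FPKM and those labelled strNrip1-/- had 12.3, 11.3 and 12.2 FPKM. Its coefficient of variation was 131% in trained libraries labelled WT and 4.76% in trained ones labelled strNrip1-/-. The log2 fold changes were -0.32 (-2.22 to 1.59) and -0.86 (-2.76 to 1.04) in sedentary and trained muscle (limma adjusted p-values 0.914 and 0.635), and the trained value was 0.25 without the 3 libraries highest in Myh7.

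Fast-type Tnnc2 (ENSMUSG00000017300, chromosome 2, 164777161 to 164779967) stood at 23886, 28140 and 22908 FPKM in labelled WT sedentary and at 18111, 26681 and 15330 FPKM in labelled strNrip1-/- sedentary libraries. Trained libraries stood at 21636, 26479 and 21695 FPKM when labelled WT and at 20201, 19503 and 19349 FPKM when labelled strNrip1-/-. The genotypes overlapped in sedentary muscle through labelled strNrip1-/- replicate 2 and did not overlap in trained muscle. Neither log2 fold change passed the test, with -0.35 (-0.76 to 0.05) in sedentary and -0.24 (-0.64 to 0.17) in trained muscle (limma adjusted p-values 0.390 and 0.521). Under 2 other scalings of the libraries the sedentary difference was called (limma adjusted p-values 0.0211 and 0.0407). It was -0.58 when labelled strNrip1-/- sedentary replicate 2 was left out and -0.18 when its replicate 3 was, and the trained value was -0.14 without labelled WT trained replicate 2, none of them called.

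Of the tropomyosins, Tpm1 came near to the threshold in both states. Fast-type Tpm1 (ENSMUSG00000032366, chromosome 9, 67022590 to 67049406), the alpha-tropomyosin of fast fibers and heart, was at 11544, 10977 and 9953 FPKM in labelled WT sedentary and at 8137, 9097 and 6872 FPKM in labelled strNrip1-/- sedentary libraries. In trained muscle it was at 10812, 11544 and 9807 FPKM in labelled WT and at 8241, 8013 and 7959 FPKM in labelled strNrip1-/- libraries. All 6 libraries labelled strNrip1-/- lay below all 6 labelled WT. The log2 fold change was -0.44 (-0.69 to -0.18) in sedentary and -0.41 (-0.66 to -0.15) in trained muscle, with limma adjusted p-values of 0.0712 and 0.0666. Tpm1 was called in both states when genes averaging under 5 FPKM were left out (limma adjusted p-values 0.0362 and 0.0349) and when libraries were scaled to the same sum over nuclear genes (0.00655 and 0.00502), and quantile normalization called it in sedentary muscle alone.

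Slow-type Tpm3 (ENSMUSG00000027940, chromosome 3, 90072649 to 90100902) was at 59.2, 102 and 61.3 FPKM in sedentary libraries labelled WT and at 98.8, 58.7 and 49.9 FPKM in those labelled strNrip1-/-. After training, libraries labelled WT had 55.1, 159 and 58.0 FPKM and those labelled strNrip1-/- had 61.8, 58.0 and 61.2 FPKM. The 3 libraries high in Myh7 again stood above the other 9, and the genotypes overlapped. The log2 fold changes of -0.12 (-0.95 to 0.72) and -0.40 (-1.23 to 0.43) did not pass the test (limma adjusted p-values 0.929 and 0.611), and without the 3 libraries the trained value was 0.09. Tpm3 and Tpm1 also make forms outside the sarcomere, and a gene-level value sums all splice forms.

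The third sarcomeric tropomyosin, Tpm2, is shared by fast and slow fibers. Of the FPKM of the 3 tropomyosins it held 33.0% ± 2.40 and 32.9% ± 1.66 in sedentary libraries labelled WT and strNrip1-/-, and 34.2% ± 0.699 and 37.3% ± 1.30 in trained ones (SD, n = 3 each). Tpm1 held 66.5% ± 2.46, 66.5% ± 1.67, 65.3% ± 0.936 and 62.2% ± 1.28 in the same order, and Tpm3 stayed between 0.333% and 0.885%. The labelled strNrip1-/- trained libraries had the lowest Tpm1 shares of the 12, from 60.8% to 63.2%. Tpm2 itself was lower in labelled strNrip1-/- sedentary muscle, with a log2 fold change of -0.44 (limma adjusted p-value 0.0394, SE 0.101), and the trained value of -0.21 (SE 0.101) did not pass the test (limma adjusted p-value 0.270). The sedentary call of Tpm2 was lost in 9 of 12 fits that left out 1 library (limma adjusted p-value up to 0.131), without the filter (0.0977), without both labelled WT replicates 2 (0.0920) and with only the 6 libraries compared (0.140).

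The actinins were the pair in which both genes passed the test, in opposite directions. Fast-type Actn3 (ENSMUSG00000006457, chromosome 19, 4861216 to 4877909) was at 3629, 3108 and 3121 FPKM in labelled WT sedentary and at 1864, 1696 and 1697 FPKM in labelled strNrip1-/- sedentary libraries. In trained muscle it was at 3063, 3076 and 3213 FPKM in labelled WT and at 1832, 1962 and 1769 FPKM in labelled strNrip1-/- libraries. All 6 libraries labelled strNrip1-/- lay below all 6 labelled WT, with a wide gap between 1962 and 3063 FPKM. Actn3 was lower (percent change -46.6) in sedentary muscle, with a log2 fold change of -0.90 (limma adjusted p-value 0.000252, SE 0.0836), and in trained muscle (percent change -40.5), a log2 fold change of -0.75 (limma adjusted p-value 0.000817, SE 0.0836). It was called under every alternative tried in both states.

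Slow-type Actn2 (ENSMUSG00000052374, chromosome 13, 12269426 to 12340760) was at 229, 311 and 309 FPKM in labelled WT sedentary and at 415, 404 and 417 FPKM in labelled strNrip1-/- sedentary libraries. Trained libraries were at 345, 382 and 269 FPKM when labelled WT and at 543, 561 and 545 FPKM when labelled strNrip1-/-. The genotypes did not overlap in either state, and libraries labelled strNrip1-/- varied least, with coefficients of variation of 1.76% and 1.85% against 16.5% and 17.3% in labelled WT. Actn2 was higher by 67.2% in trained muscle, a log2 fold change of 0.74 (limma adjusted p-value 0.00965, SE 0.135), a call that held under every alternative tried. In sedentary muscle it was higher by 46.8%, a log2 fold change of 0.55 (limma adjusted p-value 0.0484, SE 0.135). That call stood close to the threshold and was lost when 10 of the 12 libraries were left out one at a time, up to a limma adjusted p-value of 0.162 without labelled WT sedentary replicate 1. It was also lost with quantile normalization (limma adjusted p-value 0.0723), with scaling to the same sum (0.0564), without the filter (0.0655) and with a constant variance prior (0.0796).

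**Figure D2:**
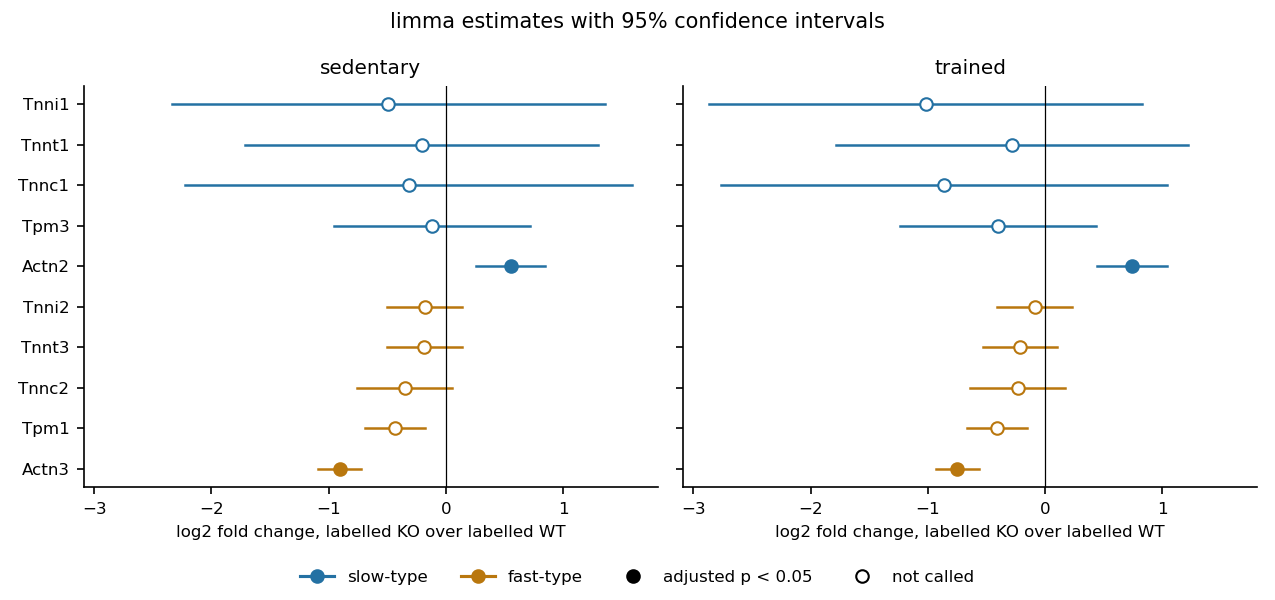
Log2 fold changes of labelled strNrip1-/- (KO) relative to WT libraries for the 10 genes, in sedentary (left) and trained (right) muscle, with limma's 95% intervals as lines. Filled circles were called. The intervals of Tnni1, Tnnt1, Tnnc1 and Tpm3 are the widest, those of Actn2 lie above 0 and those of Actn3 and Tpm1 lie below 0 in both panels.

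Measured as a sum per library, the actinins were lower in labelled strNrip1-/- libraries, since Actn3 outweighs Actn2. The sum of both was 3570 ± 250.3 FPKM (SD, n = 3) in sedentary libraries labelled WT and 2165 ± 99.95 FPKM (n = 3) in those labelled strNrip1-/-, and after training the sums were 3449 ± 37.7 and 2404 ± 107.8 FPKM (n = 3 each). The ranges did not overlap between genotypes in either state. The nonsarcomeric actinins stayed low: Actn1 at 4.07 to 5.84 FPKM and Actn4 at 16.3 to 22.1 FPKM. Neither was called for the genotype in sedentary (limma adjusted p-values 0.184 and 0.912) or trained muscle (0.462 and 0.102).

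Pairing the forms inside each library removed the scaling between libraries. The slow-type share of the actinin pair, Actn2 in the FPKM of Actn2 and Actn3, was 5.95%, 9.11% and 9.01% in labelled WT sedentary and 18.2%, 19.2% and 19.7% in labelled strNrip1-/- sedentary libraries. In trained muscle it was 10.1%, 11.04% and 7.73% in labelled WT and 22.9%, 22.2% and 23.6% in labelled strNrip1-/- libraries. The 6 libraries labelled strNrip1-/- all lay above the 6 labelled WT, and among the former the 3 trained lay above the 3 sedentary.

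The Actn2 to Actn3 ratio was 2.78-fold higher with the genotype label strNrip1-/-, a log2 difference of 1.48 (exact two-sided permutation test within training states, p = 0.005, the smallest that 400 arrangements allow). With 10 ratio tests, 5 pairs for 2 factors, the Benjamini-Hochberg value was 0.05. The difference was 1.46 within sedentary and 1.49 within trained libraries, where 3 against 3 libraries cannot go below an exact p of 0.1, and that value was reached in both. It stayed between 1.37 and 1.54 when each library was left out in turn.

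**Figure D3:**
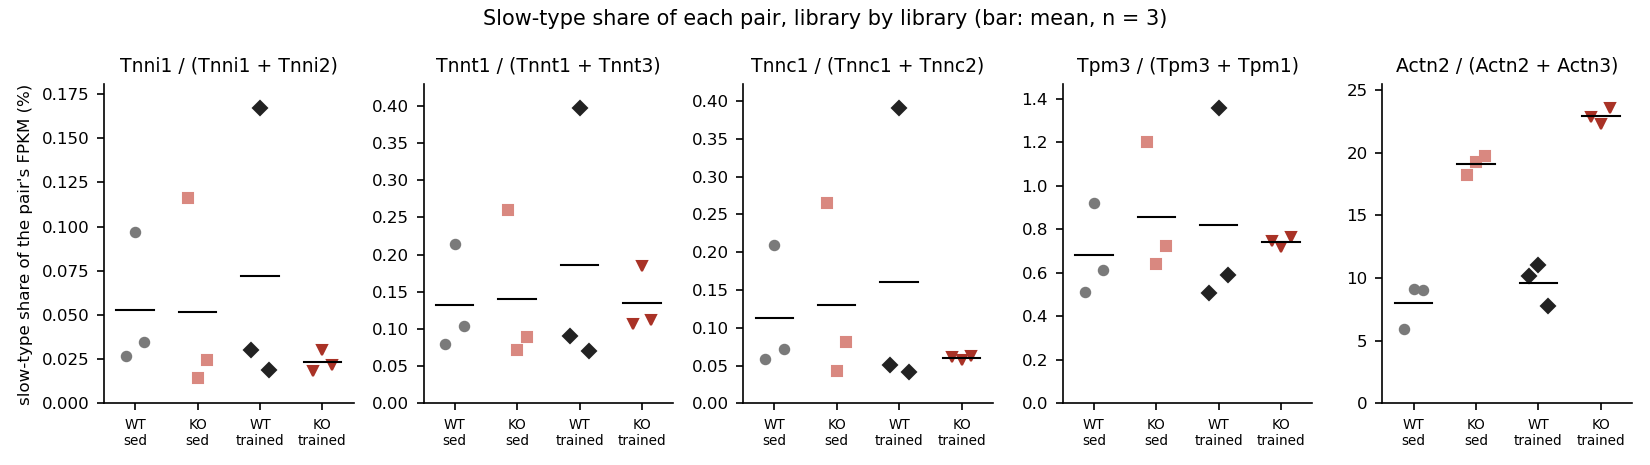
Slow-type share of each pair's FPKM (%, linear axes from 0 that differ between panels) in each library, with bars at the means of 3. WT and KO are as labelled. The actinin share runs from 5.95% to 11.04% in labelled WT and from 18.2% to 23.6% in labelled strNrip1-/- libraries, whereas the troponin and Tpm3 shares are set apart by 3 libraries from 3 different groups.

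No such separation was seen in the troponin pairs. Tnni1 made up 0.0141% to 0.167% of the troponin I pair, Tnnt1 0.0699% to 0.397% of the troponin T pair and Tnnc1 0.0412% to 0.391% of the troponin C pair. The genotype differences of the log2 ratios were -0.69, -0.05 and -0.31 (exact two-sided permutation p = 0.325, 0.935 and 0.735), with overlap in every case. The 3 highest libraries in all 3 pairs were the ones highest in Myh7. When both labelled WT replicates 2 were left out, the signs turned to 0.06, 0.55 and 0.49 (exact permutation p = 0.93, 0.22 and 0.4). Without all 3 libraries highest in Myh7 they were -0.38, 0.26 and 0.13 (exact permutation p = 0.25, 0.367 and 0.633).

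Tpm3 made up 0.507% to 1.36% of the Tpm3 and Tpm1 pair, and its ratio differed between the genotypes by 0.16 on the log2 scale (exact two-sided permutation p = 0.57). This value depended on the same libraries. It was 0.50 without both labelled WT replicates 2 (exact permutation p = 0.02) and 0.37 without all 3 libraries highest in Myh7 (exact permutation p = 0.0167, the smallest that 60 arrangements allow), an alternative chosen after the data were seen. In those 9 libraries the Tpm3 share was 0.507% to 0.612% when labelled WT and 0.641% to 0.764% when labelled strNrip1-/-, without overlap. The libraries left out were also the highest in Tpm3 itself, and the first fit kept labelled strNrip1-/- sedentary replicate 1 at 98.8 FPKM. Neither fit can therefore decide the genotype difference of this ratio.

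Tnni1, Tnnt1, Tnnc1 and Tpm3 varied together over the 12 libraries, with Pearson correlations of log2(FPKM + 0.5) from 0.92 to 0.98 between any pair of them. For Tnnt1, the genes outside the 10 with the most similar profile were Myh7 (r = 0.98), the slow calcium pump Atp2a2 (r = 0.96) and the slow myosin light chain Myl3 (r = 0.90). Actn2 correlated with the 4 genes at -0.13 to 0.15 across the libraries and at 0.55 to 0.65 once the group means were taken out, where the 4 correlated at 0.95 to 0.99 with each other. These values describe 12 libraries that share groups and a few high members, and no test was made of them. The part of other fibers or of neighboring muscle in the 3 high libraries was not tested.

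**Figure D4:**
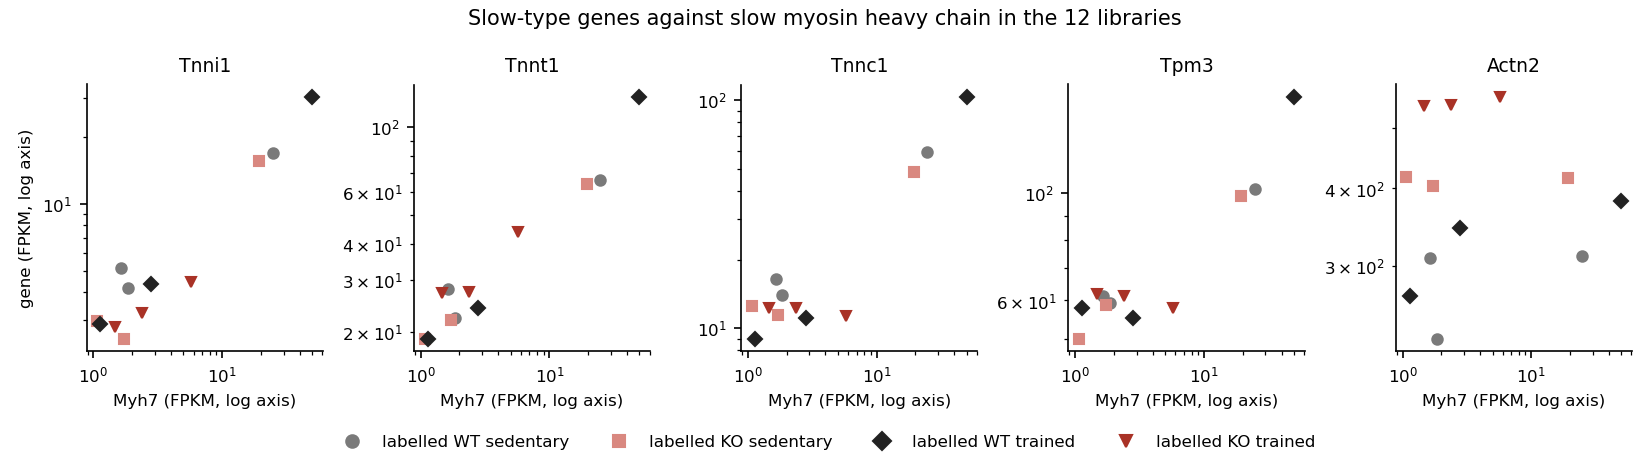
FPKM of the 5 slow-type genes against Myh7 in the 12 libraries, both on log axes, with symbols for the labelled groups. Tnni1, Tnnt1, Tnnc1 and Tpm3 are highest in the 3 libraries with Myh7 at 19.4 to 49.99 FPKM, whereas all 6 values of Actn2 in libraries labelled strNrip1-/- lie above the 6 labelled WT.

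The fast troponins kept nearly fixed proportions. Tnnt3 stood at 1.61 to 1.85 times Tnni2 in FPKM, with a coefficient of variation of 4.28% over 12 libraries, and Tnnc2 at 1.27 to 1.60 times Tnni2 (7.62%). The slow troponins were looser, at 3.89 to 9.82 for Tnnt1 over Tnni1 (33.2%) and 2.52 to 4.62 for Tnnc1 over Tnni1 (19.2%). Within the narrow range of the fast forms, the 3 labelled strNrip1-/- trained libraries had the lowest Tnnt3 to Tnni2 ratios of the 12, at 1.69, 1.61 and 1.63. Tnni2, Tnnt3 and Tnnc2 correlated at 0.93 to 0.97 with each other, while Actn3 correlated with them at 0.40 to 0.57 and with Tpm1 at 0.89. Once the group means were taken out, Actn3 stood at -0.21 to -0.16 with the fast troponins and at 0.18 with Tpm1.

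**Figure D5:**
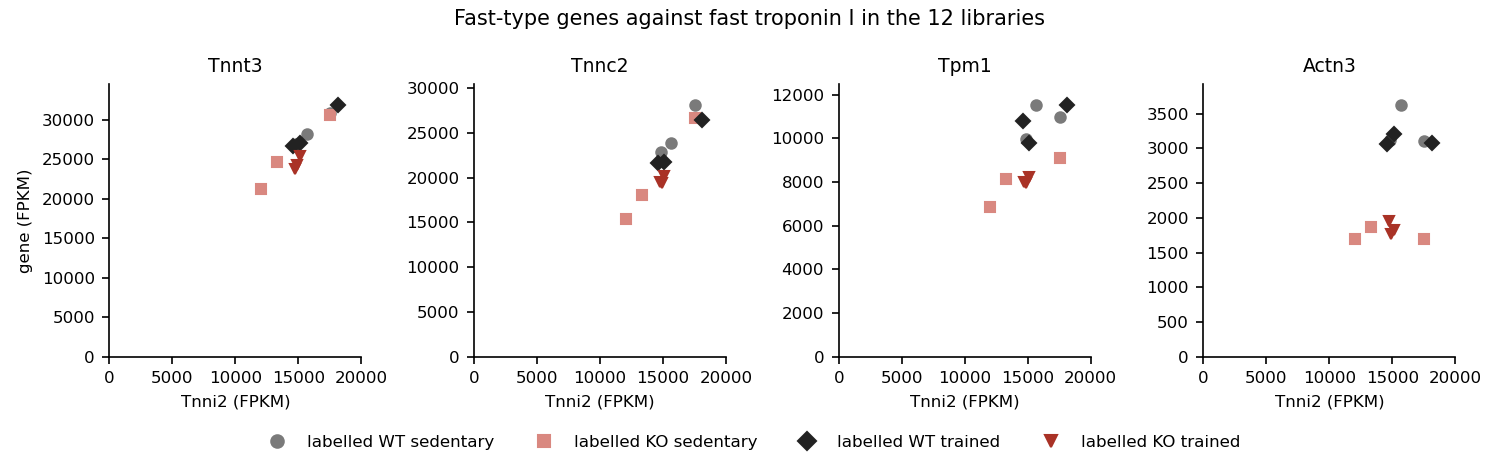
FPKM (axes from 0) of Tnnt3, Tnnc2, Tpm1 and Actn3 against Tnni2 in the 12 libraries. Tnnt3 and Tnnc2 rise with Tnni2 across the 12 libraries. Tpm1 and Actn3 at a given Tnni2 are lower in the libraries labelled strNrip1-/-, as is Tnnc2 except in sedentary replicate 2.

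For Actn3, the genes outside the 10 with the most similar profile were Cib2 (r = 0.99), Snx10 (r = 0.98) and Mybpc2 (r = 0.98), of which Mybpc2 is the fast form of myosin-binding protein C. Actn2 and Actn3 ran against each other (r = -0.83), and after the group means were taken out the correlation was -0.62 over 12 libraries. The profiles most similar to Actn2, named after their values were seen, were Hsdl2 (r = 0.98), Hadh (r = 0.97) and Cd36 (r = 0.96). Hadh is an enzyme of fatty acid oxidation and Cd36 a fatty acid transporter.

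None of the 10 genes was called for training. In labelled WT libraries 0 of 10 were called (0% of all genes were called, and 1061 genes and 0 of the 10 had an unadjusted limma p under 0.05). In labelled strNrip1-/- libraries 0 of 10 were called as well (0% of all genes, with 1544 genes and 1 of the 10 at an unadjusted p under 0.05). That 1 gene was Actn2, whose trained libraries all lay above the sedentary ones, with a log2 fold change of 0.42 (limma adjusted p-value 0.282, SE 0.135), and when libraries were scaled to the same sum it was called (0.59, limma adjusted p-value 0.0332), a scaling that moved the median of all genes by 0.16 in this comparison. In labelled WT libraries Actn2 overlapped between the training states, at 0.23 (limma adjusted p-value 0.704, SE 0.135).

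The Actn2 to Actn3 ratio was higher in trained libraries by 0.32 on the log2 scale, or 1.25-fold (exact two-sided permutation test within genotypes, p = 0.03, Benjamini-Hochberg value 0.15 over the 10 ratio tests). The difference was 0.30 within labelled WT (exact p = 0.4) and 0.33 within labelled strNrip1-/- libraries (exact p = 0.1, the smallest for 3 against 3). Without labelled WT sedentary replicate 1 it was 0.21 (exact permutation p = 0.105), without labelled WT trained replicate 2 it was 0.26 (p = 0.115) and without labelled WT trained replicate 1 it was 0.29 (p = 0.105). The ratios of the other 4 pairs differed by -0.36 to 0.15 with training (exact permutation p = 0.64 to 0.98).

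The interaction asks whether the genotype difference differs between sedentary and trained muscle. It was called for 0 of the 10 genes and for 0% of all genes, with 989 genes and 0 of the 10 at an unadjusted limma p under 0.05. The estimates were 0.19 (-0.23 to 0.61) for Actn2 and 0.15 (-0.11 to 0.41) for Actn3 in log2 units (adjusted p-values of 0.842 and 0.780 by limma). The intervals include 0 and do not show that the effects in both states were equal.

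Other genes of the same structures were counted by lists, which were chosen with earlier results of these data known. For comparison, 1.92% of all genes were called higher and 1.59% lower in sedentary muscle, and 3.21% and 2.77% in trained muscle. The median over all genes was -0.00 and 0.01 in the 2 states. Of 20 other thin filament genes, 0 were called higher and 4 lower in labelled strNrip1-/- sedentary muscle, and 0 higher and 3 lower in trained muscle. The medians were -0.20 and -0.18 on the log2 scale, with 15 and 17 of the 20 genes below 0. The largest estimate in both states was upward and not called. It was that of the actin Actc1, at 1.97 (0.48 to 3.47) and 1.38 (-0.11 to 2.88), with limma adjusted p-values of 0.163 and 0.278. Sedentary Actc1 was at 116 to 143 FPKM in labelled WT and 425 to 695 FPKM in labelled strNrip1-/- libraries. The actin-capping subunit Capza2 (-0.36 and -0.33) and the leiomodin Lmod1 (-0.66 and -0.67) were lower in both states. Besides Tpm2, Klhl40 (-0.39), which stabilizes thin filament proteins, was lower in sedentary muscle, and the cofilin Cfl2 (-0.33) in trained muscle. The call of Klhl40 was lost in 10 of 12 fits that left out 1 library (limma adjusted p-value up to 0.145), without the filter (0.0549) and with the nuclear sum (0.274), quantile normalization (0.0838) or a constant variance prior (0.0845). The sedentary count was 0 without labelled WT sedentary replicate 1, 2 or 3 or labelled strNrip1-/- sedentary replicate 3, and the trained count was 0 without labelled strNrip1-/- trained replicate 3.

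Of 25 other Z-disc genes, 23 were tested, and these include the nonsarcomeric actinins Actn1 and Actn4. In sedentary muscle 1 was higher and 1 lower, with a median log2 fold change of -0.14, and in trained muscle 2 were higher and 2 lower, with a median of 0.00. Of all genes, 1.92% were called higher and 1.59% lower in sedentary muscle, and 3.21% and 2.77% in trained muscle. The co-chaperone Bag3 was higher in both states (0.42 and 0.57 on the log2 scale), the stretch-responsive Ankrd2 in trained muscle (1.25), and the actinin-binding PDZ-LIM protein Pdlim3 was lower in both (-0.43 and -0.46). Ldb3, another PDZ-LIM protein of the Z-disc, was lower in trained muscle (-0.31). The count of both directions was 0 in sedentary muscle without labelled WT or labelled strNrip1-/- sedentary replicate 3, and 1 in trained muscle without labelled WT trained replicate 1 or 3 or any single labelled strNrip1-/- trained library.

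Of 13 other fast-fiber genes, 5 were lower in labelled strNrip1-/- sedentary and 7 in trained muscle and 0 were higher, with medians of -0.38 and -0.46 on the log2 scale. Among all genes, 1.59% were called lower and 1.92% higher in sedentary muscle, and 2.77% and 3.21% in trained muscle. The AMP deaminase Ampd1 (-0.50 and -0.56), Mybpc2 (-0.56 and -0.50), the skeletal myosin light chain kinase Mylk2 (-0.68 and -0.47) and the calsequestrin Casq1 (-0.50 and -0.72) were lower in both states, as was the glycogen phosphorylase Pygm (-0.38 and -0.32). Of 14 other slow-fiber genes, 1 was higher in sedentary and 2 in trained muscle and 0 were lower, with medians of -0.01 and -0.02. These were myoglobin, Mb (0.86 and 0.76), and in trained muscle Ankrd2 (1.25), which is also in the Z-disc list. Without single libraries the fast-fiber count was as low as 3, without labelled WT sedentary replicate 1 or 2 or labelled strNrip1-/- sedentary replicate 1 in sedentary and without labelled strNrip1-/- trained replicate 2 or 3 in trained muscle. The slow-fiber count was 0 in sedentary muscle without labelled WT replicate 1 or 3 or labelled strNrip1-/- replicate 1 or 2 of that state, and in trained muscle without labelled WT replicate 1 or 3 or any single labelled strNrip1-/- library of that state. Of the genes named from these lists, Ampd1 and Mybpc2 in both states, Mylk2 in sedentary muscle and Casq1 and Bag3 in trained muscle kept their calls whichever single library was left out, and the other calls were each lost in 3 to 10 of the 12 such fits. Myoz1 is shared between the fast-fiber and Z-disc lists, and Csrp3, Myoz2 and Ankrd2 between the slow-fiber and Z-disc lists.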

How the data were processed

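The authors quantified RNA-seq reads of 12 EDL libraries with Salmon 1.10.2 on mm10, summed them to genes with tximport and deposited 1 table of FPKM per gene and library, already scaled for depth. The kit kept no strand. The deposited log2 fold changes and p-values of the authors' own DESeq2 1.44.0 comparisons (8 columns) were not used. FPKM are not counts, so log2(FPKM + 0.5) was fitted with limma 3.58.1 (R 4.3.3) over all 12 libraries with group means and an intensity trend, for 12744 genes that averaged 0.5 FPKM or more. P-values were Benjamini-Hochberg adjusted over all of them, and a call needed an adjusted p below 0.05 and a fold above 1.2. Ratios of paired genes were compared by exact two-sided permutation within the other factor. Low values recurred as whole multiples of 1 fragment (99.0% to 99.7% of them within 0.15 of a whole number in 1613 genes), which gave 19.96 to 29.08 M fragments per library, and 3 fragments on a gene of 2 kb correspond to 0.0516 to 0.0752 FPKM. That floor covers counting error only.

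The genes and lists were chosen with earlier results of these data known. Genes named were the 10, Nrip1, paralogs, at most 4 called genes per list and comparison by smallest p, and for Tnnt1 and Actn3 the 3 closest profiles. Those of Actn2, and Actc1 of the thin filament list, were added after their values were seen. The fit was tested on simulated data. Alternatives changed the pseudocount, the filter, the scaling, the variance prior, the libraries and the replicate block. Coordinates are GRCm38 with GENCODE M21, and sequences are from RefSeq (GRCm38.p6). Figures were drawn with matplotlib 3.10.9.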

Additional observations from a re-analysis of the deposited data

How the results depend on the processing

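The genotype calls of Actn3 in both states and of Actn2 in trained muscle, and the genotype difference of the Actn2 to Actn3 ratio, kept their direction and side of the threshold under every alternative that could reach it. Within sedentary (1.46) or trained libraries (1.49) the ratio test cannot go below an exact p of 0.1. Over all results, 848 values from alternatives other than leaving out 1 library kept direction and call, 90 lost the call, 17 gained it, 27 reversed and 41 moved. The cause was not tested unless named.

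In sedentary muscle, 1 of the 10 genes was called with a constant variance prior, without the filter, with only the 6 libraries compared, without both labelled WT replicates 2 and without the 3 libraries highest in Myh7 (an alternative chosen after seeing the data). Scaling to the same sum called 5 (the fast-type genes, without Actn2) in sedentary muscle and 1 for training in labelled strNrip1-/- libraries. For all genes, the counts were 166 and 445 in sedentary and trained muscle with only the 6 libraries (fewer samples), 259 in sedentary muscle without both labelled WT replicates 2, and 143 and 398 without the 3 libraries. The lists of other genes ran from 1 (no filter, 6 libraries) through 2 (constant prior, nuclear sum, without both replicates 2, without the 3 libraries) to 7 (same sum) for the thin filament in sedentary muscle and were 1 in trained muscle with 6 libraries or without the 3. For the Z-disc they were 0 with 6 libraries or without the 3, 1 with a constant prior or without both replicates 2, 4 with quantile normalization and 5 with the same sum in sedentary muscle, and 2 in trained muscle without the 3. Fast-fiber genes numbered 2 with 6 libraries, 3 without the 3 and 11 with the same sum in sedentary muscle, and 3 with 6 libraries and 4 without the filter, both replicates 2 or the 3 in trained muscle. Slow-fiber genes numbered 0 without the filter, with 6 libraries or without the 3 in sedentary muscle, and 1 with a constant prior, without the filter or without the 3 in trained muscle.

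Directions reversed as follows. Without both labelled WT replicates 2, the sedentary genotype values were 0.33 for Tnnc1, 0.10 for Tnni1, 0.25 for Tnnt1 and 0.13 for Tpm3. Without them and likewise without the 3 libraries, the trained ones were 0.25 for Tnnc1, 0.00582 for Tnni2, 0.57 for Tnnt1 and 0.0934 for Tpm3. Without both replicates 2, genotype differences of the ratios were 0.49 for troponin C, 0.0610 for troponin I, and 0.55 for troponin T, and training differences were -0.0282 for troponin T and -0.0914 for Tpm3 to Tpm1. Without the 3 libraries they were 0.13 for troponin C and 0.26 for troponin T for genotype. Within labelled WT libraries the training difference was 0.0337 for troponin I, and within labelled strNrip1-/- libraries -0.15 for Tpm3 to Tpm1. Within sedentary libraries the genotype difference for troponin C was 0.0239. Scaling turned Tnni3 (-0.0236, same sum) and Actn4 (0.0453, nuclear sum) for genotype in sedentary muscle, Tpm1 (-0.0131, nuclear sum) and Actn3 (-0.0606, quantile) for training in labelled strNrip1-/- libraries, and the Actn3 interaction (-0.00396, quantile). Other ratio differences kept their direction and changed side of the threshold. The genotype difference of Tpm3 to Tpm1 was 0.50 without both replicates 2 and 0.37 without the 3 libraries, both past it. These fits left out the libraries highest in Tpm3 and cannot decide that difference. The training difference of the actinins was 0.31 and 0.30 in the same order (exact permutation p = 0.133 for both), 0.30 within labelled WT and 0.33 within labelled strNrip1-/- libraries, none past it.

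Leaving out each library in turn, the count of the 10 genes called in sedentary muscle was 1 to 2, of all genes 163 to 478 in sedentary and 315 to 874 in trained muscle, of thin filament genes 0 to 5 and 0 to 3, of Z-disc genes 0 to 2 and 1 to 6, of fast-fiber genes 3 to 6 and 3 to 8 and of slow-fiber genes 0 to 1 and 0 to 2. All genes fell to 163, 222, 216 and 260 in sedentary muscle without labelled WT sedentary replicates 1, 2 and 3 and labelled strNrip1-/- sedentary replicate 1, and to 385, 385, 333 and 315 in trained muscle without labelled WT trained replicates 1 and 3 and labelled strNrip1-/- trained replicates 2 and 3. Genotype values ranged in sedentary muscle from -1.27 to 0.10 for Tnni1, -0.75 to 0.25 for Tnnt1, -0.98 to 0.33 for Tnnc1, -0.40 to 0.13 for Tpm3, -0.52 to 0.0523 for Tnnt2, -0.15 to 0.24 for Tnni3 and -0.10 to 0.0399 for Actn4, and in trained muscle from -0.15 to 0.01 for Tnni2, -1.64 to -0.0441 for Tnni1, -0.79 to 0.57 for Tnnt1, -1.49 to 0.25 for Tnnc1 and -0.67 to 0.09 for Tpm3. Training values ranged from -0.11 to 0.000652 for Actn3 and -0.0736 to 0.0483 for Tpm1 in labelled WT, and from -0.0923 to 0.11 for Tpm1 in labelled strNrip1-/- libraries. Ratio differences with training ranged from -0.74 to 0.17 for troponin I, -0.23 to 0.44 for troponin T, -0.88 to 0.00329 for troponin C, -0.21 to 0.15 for Tpm3 to Tpm1 and 0.21 to 0.40 for the actinins, and with genotype from -0.33 to 0.34 for troponin T and -0.67 to 0.21 for troponin C.

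Replicate numbers recur across groups, and the labels do not say whether they mark a pairing. Deviations of same-numbered libraries correlated at -0.105 to 0.241 (18 pairs) and those of other libraries at -0.251 to 0.196 (36 pairs). The replicates 2 of labelled WT sedentary, labelled strNrip1-/- sedentary and labelled WT trained muscle correlated with each other at 0.162 to 0.241. Replicate 2 of labelled strNrip1-/- trained muscle correlated with them at -0.105 to -0.0285. With the replicate block the genes called numbered 441 in sedentary and 756 in trained muscle, Tpm1 was called in both states (limma adjusted p-values 0.0321 and 0.0308), Actn2 in sedentary muscle was not (0.0578), and the training difference of the actinin ratio was 0.32 (exact permutation p = 0.0625). At these depths, 3 fragments on a 2 kb gene correspond to at most 0.0752 FPKM, so Tnni3 and Nppa lie near the limit and the 10 genes far above it.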
